A study of Mus musculus with 11 samples.

Results

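Windows of captured methylated DNA named after 7 developmental transcription factor genes were examined: Sim1, Meis1, Pou3f4, Tcf7l2, Klf7, Gli2 and Twist2. They were chosen by the gene name in the authors' 4 deposited tables of windows, each of which compares 2 cycle lengths. The rows of those tables were selected from the same values: in the authors' deposited table no p-value exceeded 9.94e-06 for ventral SCN (24 h against 22 h) or 9.01e-05 for dorsal SCN (24 h against 26 h). They number 8 of the 1239 listed windows, 2 of them for Sim1 and 1 for each other gene. DNA methylation had been measured by MeDIP-seq, in which an antibody pulls down methylated DNA fragments (here about 300 bp long) for sequencing. DNA came from the suprachiasmatic nucleus (SCN), the hypothalamic pacemaker of circadian rhythms, divided into a ventral and a dorsal piece. The mice were wild-type C57BL/6Cr1 animals, 6 weeks old at the start and labelled as postnatal day 90. Their cycles of light and dark lasted 22, 24 or 26 h over 6 weeks. Constant darkness followed for 3 days, and brains were taken at circadian time 4. Each group combined a piece of SCN with a cycle length, and every group shared strain, genotype, darkness and sampling time. The labels give 2 samples in each group except dorsal 24 h, which has 1. The tables hold 1 column of values per group, so no value below has a replicate error. How samples of a group were combined into that column is not given in the sources used here, so it is not known which samples a value holds. DNA methylation lists carry no expression markers, and the labelled tissue was therefore not checked against markers.

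These factors bind DNA and act in development, most of them in the brain among other tissues. Sim1, of the bHLH-PAS family, is needed for neuroendocrine neurons of the paraventricular and supraoptic nuclei. Meis1 is a TALE homeobox protein that works together with PBX and HOX proteins, and Pou3f4 (also called Brn4) belongs to the POU family. Tcf7l2 switches target genes on together with beta-catenin in Wnt signalling, and Gli2 does so for Hedgehog signalling. Klf7 is a zinc-finger protein involved in neuron maturation, and Twist2 is a bHLH repressor of mesenchymal and skin development. Methylation in mammals is found mainly at the cytosine of CpG dinucleotides, and in most tissues it helps to silence retrotransposons such as LINE-1.

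Of the 8 windows, 7 were in the list that compares ventral SCN after 24 h and 22 h cycles, and 1 (Twist2) was in the list for dorsal SCN after 24 h and 26 h cycles. Of all 1239 listed windows, 812 are in that ventral list and 79 in that dorsal list, so most listed windows of any kind are in the ventral one. No window was in more than 1 list, so for each only the pair of cycle lengths of its own list can be given. Values of these windows at the other cycle length or in the other piece of SCN were not analysed here. Ventral windows of Sim1, Meis1, Pou3f4, Tcf7l2 and Klf7 were 4.42- to 9.6-fold lower at 24 h than at 22 h, 6 of 7 windows in a list where 75.7% of all windows were lower. The windows of Gli2 and Twist2 were 20.3-fold and 21.4-fold higher at 24 h, each against a single read in the other column, in lists where 24.3% and 21.5% of windows were higher.

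The 6 lower windows hold mostly repeated DNA, and 4 of them hold copies of a shared tandem unit. To show this, the unit is printed for each of these windows on the forward strand of mm9, each in the same phase, with CpG dinucleotides in capitals. The copies lie at chrX:108076001-108076208 (Pou3f4), chr10:50754283-50754490 and chr10:50754699-50754906 (the first and second Sim1 window), and chr11:18523546-18523753 (Meis1).
Pou3f4: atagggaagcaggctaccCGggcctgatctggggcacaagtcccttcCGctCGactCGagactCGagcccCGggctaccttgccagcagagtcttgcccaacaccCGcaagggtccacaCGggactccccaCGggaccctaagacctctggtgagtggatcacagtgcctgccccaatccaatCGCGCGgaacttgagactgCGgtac
Sim1 window 1: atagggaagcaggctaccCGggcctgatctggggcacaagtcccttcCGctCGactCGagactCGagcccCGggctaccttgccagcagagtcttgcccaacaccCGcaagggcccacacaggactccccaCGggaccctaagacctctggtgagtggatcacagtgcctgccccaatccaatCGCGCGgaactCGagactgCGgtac
Sim1 window 2: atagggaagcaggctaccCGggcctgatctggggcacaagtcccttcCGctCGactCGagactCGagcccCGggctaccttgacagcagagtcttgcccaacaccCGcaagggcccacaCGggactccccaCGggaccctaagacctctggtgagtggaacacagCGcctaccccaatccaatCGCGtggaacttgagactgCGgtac
Meis1: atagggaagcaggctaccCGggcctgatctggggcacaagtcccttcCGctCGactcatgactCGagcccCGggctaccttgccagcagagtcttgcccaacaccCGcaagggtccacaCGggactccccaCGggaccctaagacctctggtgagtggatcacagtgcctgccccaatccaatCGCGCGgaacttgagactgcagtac

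The unit is 208 bp long and was taken from the first 208 bases of the Pou3f4 window. Shifting the Pou3f4 window by 208 bases matched 98.3% of its bases to themselves, so successive copies are nearly alike. Against the Pou3f4 copy, with positions counted from 1 at its first base, the best copy of the first Sim1 window differed at 3 bases (T114C, G121A and T195C). The best Meis1 copy differed at 3 bases (G58A, A59T and G204A), and that of the second Sim1 window at 6 bases. The Pou3f4 copy and both Sim1 copies hold 13 CpGs each and the Meis1 copy holds 11, since G58A and G204A each fall on a CpG. Tandem units of this kind are known from the promoters at the start of mouse LINE-1 elements.

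The surroundings of these 4 windows hold further LINE-1 features. The unit formed an array of 953 bp around both Sim1 windows (4.58 units), 727 bp around the Meis1 window (3.5 units) and 1985 bp around the Pou3f4 window (9.54 units). Each array was followed on the same strand by an open reading frame (a stretch free of stop codons) with FADD, a motif of the LINE-1 reverse transcriptase. That frame was 1300 codons long near Sim1, 1101 near Meis1 and 928 near Pou3f4. Among 2000 random windows, 4.6% had a frame of at least 600 codons with FADD within 8000 bp. The element pointed the same way as the named gene at Sim1 and Pou3f4 and the opposite way at Meis1. At Sim1 both 500-bp windows at least 50% covered by the array were listed, against 1 of 2 at Meis1 and 1 of 4 at Pou3f4.

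The Tcf7l2 and Klf7 windows carry other repeated sequence, and they did not align to each other. Their stretches of 200 bases richest in CpG are shown as examples, with CpGs in capitals, from the forward strand of mm9 at chr19:56058001-56058200 and chr1:64230513-64230712.
Tcf7l2: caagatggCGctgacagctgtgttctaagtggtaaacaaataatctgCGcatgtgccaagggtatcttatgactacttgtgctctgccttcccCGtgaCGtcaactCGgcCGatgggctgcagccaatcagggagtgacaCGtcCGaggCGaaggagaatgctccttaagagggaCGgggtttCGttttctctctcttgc
Klf7: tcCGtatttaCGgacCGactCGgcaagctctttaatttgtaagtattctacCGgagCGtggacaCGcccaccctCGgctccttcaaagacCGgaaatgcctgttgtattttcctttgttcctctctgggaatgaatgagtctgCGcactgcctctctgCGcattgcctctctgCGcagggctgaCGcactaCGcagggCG

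The first 322 bases of the Tcf7l2 window recur at 100% identity on the same strand, 6711 bp upstream. Between these copies lies an open reading frame of 1028 codons with YXDD, the reverse transcriptase motif of LTR retrotransposons. The same letters at both ends of an element are the mark of LTRs, the long terminal repeats from which these retrotransposons take their name. The Klf7 window had no direct copy of at least 150 bp within 8000 bp. It lies within a frame of 611 codons on the reverse strand, followed by a frame of 905 codons with YXDD. In both cases the frames run in the direction of the named gene. A frame of at least 600 codons with YXDD lay within 8000 bp of 1.75% of random windows. No repeat annotation was used, so the LINE-1 and LTR features rest only on tandem units, direct copies, reading frames and motifs.

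The 2 windows higher at 24 h are of another make. The stretch of 200 bases richest in CpG is shown for Gli2 (chr1:120987250-120987449), with CpGs in capitals. For Twist2 (chr1:93693736-93693935) the tandem stretch is shown, and capitals mark copies of the word AAGGGAGGATGG.
Gli2: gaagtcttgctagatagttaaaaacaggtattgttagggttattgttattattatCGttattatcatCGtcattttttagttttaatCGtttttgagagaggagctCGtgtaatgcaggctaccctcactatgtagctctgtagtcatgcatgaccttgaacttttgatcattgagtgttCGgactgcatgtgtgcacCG
Twist2: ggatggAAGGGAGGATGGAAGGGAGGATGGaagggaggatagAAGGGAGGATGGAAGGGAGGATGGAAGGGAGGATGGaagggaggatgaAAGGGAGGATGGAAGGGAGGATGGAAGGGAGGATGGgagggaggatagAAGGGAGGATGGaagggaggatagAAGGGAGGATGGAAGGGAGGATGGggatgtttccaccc

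Every 31-base word of the Gli2 window occurred once in the genome, and so did 83.2% of those of the Twist2 window. The 12-base word marked at Twist2 was chosen as the most frequent one of its window, where it occurred 11 times. Searched on both strands, it was in none of the 2000 random windows. Because the word was chosen from this window, that does not show how rare such tandem stretches are. No long reading frame was found within 8000 bp of either window. The printed Twist2 stretch contains 0 CpGs.

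**Figure D1:**
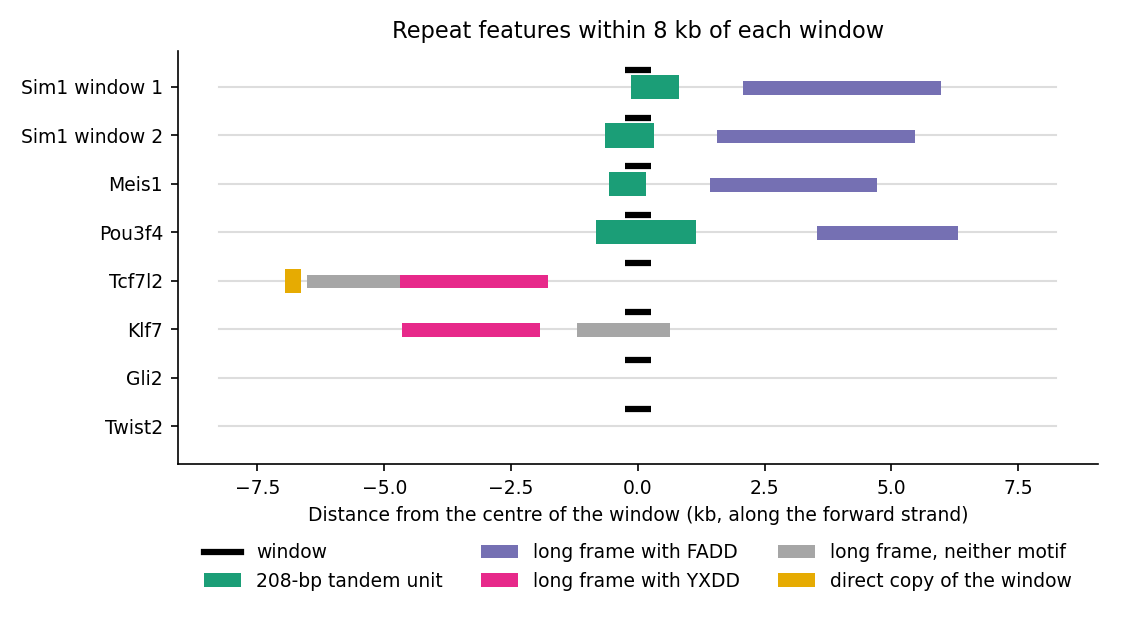
Repeat features along the forward strand within 8 kb of the centre of each window (horizontal axis in kb, 1 row per window). Black bars are the 500-bp windows, green bars the 208-bp tandem unit, and the other colours open frames of at least 600 codons and the direct copy of the Tcf7l2 window. The unit and a frame with FADD stand together at Sim1, Meis1 and Pou3f4, frames with YXDD at Tcf7l2 and Klf7, and no feature at Gli2 and Twist2.

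The levels are given in RPKM, that is reads per kilobase of window scaled to the column's total, which allows columns of different depth to be compared. The step between RPKM values gave a depth of 5230000 reads for the ventral column at 24 h and 8170000 at 22 h, and for the dorsal columns 4580000 at 24 h and 5770000 at 26 h. Intervals are exact 95% intervals from the recovered reads (Clopper-Pearson) and cover counting error only, not the spread between mice. Since reads carry no molecular identifier, several may come from 1 molecule. These values placed the windows in the authors' lists, so ratios are given as a description, without a test.

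Sim1 had 2 adjoining windows downstream of the gene. The first (chr10:50754001-50754500) had 1.15 RPKM (3 reads) at ventral 24 h and 11 RPKM (45 reads) at 22 h, a level 9.6-fold lower at 24 h (interval 3.08 to 48.3). The second (chr10:50754501-50755000) had 3.82 RPKM (10 reads) and 17.1 RPKM (70 reads), 4.48-fold lower (2.3 to 9.75). The 24 h column was low in both adjoining windows, and the intervals of the 2 ratios overlap. Both were listed for such a difference and lie in the same array, so they are not independent observations. The p-value of the authors' deposited table was 1.98e-06 for the first window and 4.65e-07 for the second.

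The Meis1 window (chr11:18523501-18524000) had 1.91 RPKM (5 reads) at 24 h and 11.5 RPKM (47 reads) at 22 h, 6.02-fold lower (2.4 to 19.4). With a p-value of 8.53e-06 in the authors' deposited table, it was nearest of the 6 lower windows to the largest p of that list (9.94e-06). The Pou3f4 window (chrX:108076001-108076500) had the most reads of the 8: 4.21 RPKM (11 reads) at 24 h and 18.6 RPKM (76 reads) at 22 h. It was 4.42-fold lower (2.34 to 9.23), with the smallest p-value of the 8 in the authors' deposited table (1.50e-08).

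For the Wnt effector Tcf7l2, the window (chr19:56058001-56058500) had 1.53 RPKM (4 reads) at 24 h and 11.8 RPKM (48 reads) at 22 h, 7.68-fold lower (2.81 to 29.3). For Klf7 (chr1:64230501-64231000) the values were 3.44 RPKM (9 reads) and 15.7 RPKM (64 reads), 4.55-fold lower (2.25 to 10.4). The intervals of the 6 ratios overlap one another, so their order cannot be told from these reads.

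The window of the Hedgehog effector Gli2 (chr1:120987001-120987500) had 4.97 RPKM (13 reads) at ventral 24 h and 0.24 RPKM (1 read) at 22 h. It was 20.3-fold higher at 24 h, with an interval of 3.05 to 863 because of the single read. The log2 fold change in the authors' deposited table was larger, 7.16 against 4.34 for the log2 ratio of RPKM. In the authors' deposited column named counts, this window has 18 at 24 h and 0 at 22 h. Those values differ from the reads recovered from the RPKM (13 and 1), and they were used here as a score. They differ in at least 1 column at every other window of these genes too, for example 14 and 62 against 11 and 76 reads at Pou3f4. The Twist2 window (chr1:93693501-93694000) had 7.42 RPKM (17 reads) at dorsal 24 h and 0.35 RPKM (1 read) at dorsal 26 h. It was 21.4-fold higher (3.35 to 895), with a p-value of 7.68e-05 in the authors' deposited table. The dorsal 24 h group is the one with a single labelled sample.

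**Figure D2:**
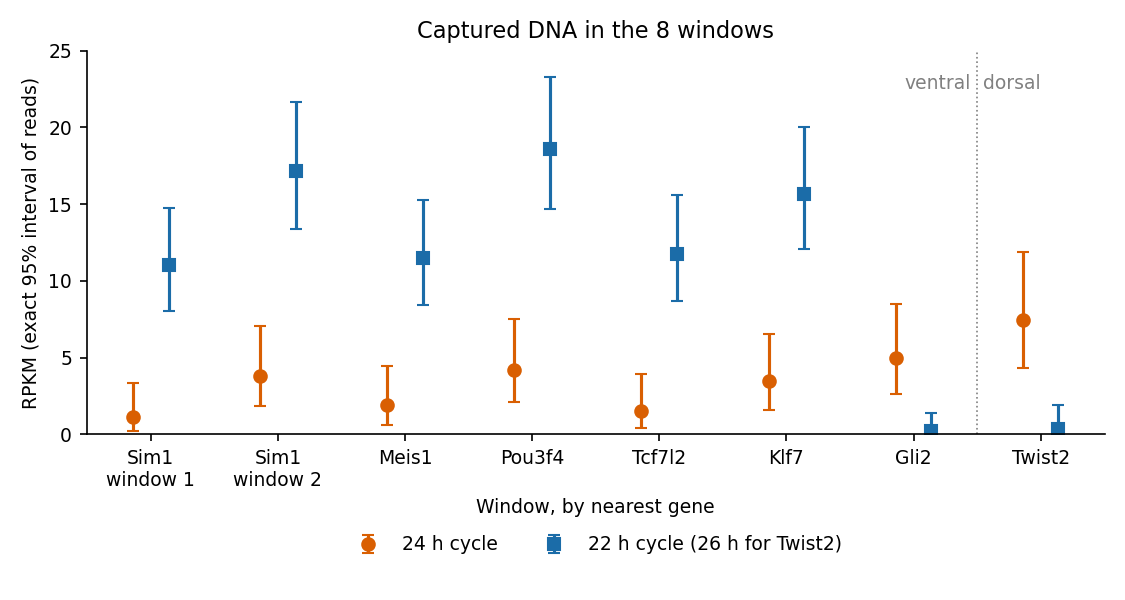
RPKM (vertical axis) of each window at 24 h (orange circles) and at the other cycle length of its list (blue squares), with exact 95% intervals of the reads as bars. The 6 windows of Sim1, Meis1, Pou3f4, Tcf7l2 and Klf7 lie between 1.15 and 4.21 RPKM at 24 h and between 11 and 18.6 at 22 h, while those of Gli2 and Twist2 are near 0 in the other column.

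Set against their lists, the 6 lower windows went the common way and Gli2 and Twist2 the less common one. In the ventral 24 h against 22 h list, 615 of the 812 windows were lower at 24 h. All 6 lower members were at least 4-fold lower, as were 502 of these 615 windows (61.8% of the whole list). The list's lower windows had a median of 2.68 RPKM at 24 h and 14.9 at 22 h, and a median 5.4-fold deficit. Ordered by the size of that deficit, the first Sim1 window ranked 76 of 615, Tcf7l2 127, Meis1 240, Klf7 445, the second Sim1 window 452 and Pou3f4 457. The Gli2 window ranked 5 of 197 by its excess. Of these 197 higher windows, 83 were at least 4-fold higher (10.2% of the whole list). In the dorsal 24 h against 26 h list, 17 of the 79 windows were higher at 24 h. Of these 17, 11 were at least 4-fold higher (13.9% of the whole list). The Twist2 window ranked 2 of 17 by its excess. Ranks of windows with few reads in a column are poorly determined, above all with 1 read. The intervals of all 6 lower members hold the median deficit of 5.4-fold, so their ranks are poorly determined too. For these ranks, medians and shares, a column without reads was set to 3 reads. A window without reads in 1 column can therefore rank below a window with fewer than 3 reads there, such as Gli2 or Twist2, even where its reads differ more. The ranks thus hold only under this setting.

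**Figure D3:**
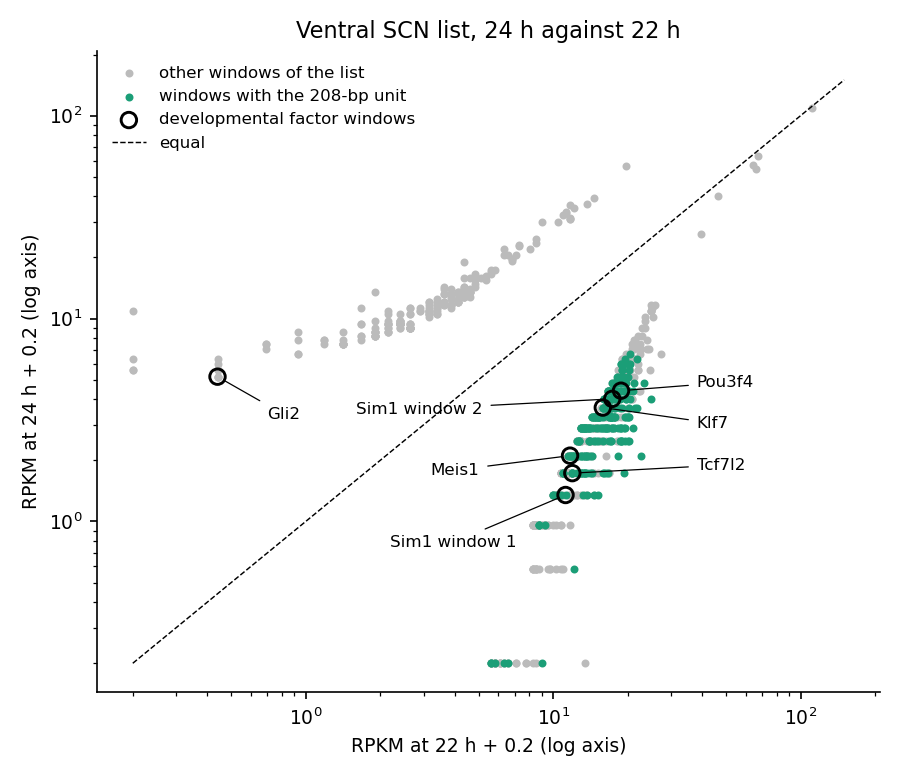
RPKM at 22 h (horizontal) and at 24 h (vertical) of the 812 windows of the ventral list, both with 0.2 added and on log axes. Green points are the 241 windows with the 208-bp unit, circles the windows of the developmental factors, and the dashed line equal levels. The 6 lower windows lie inside the cloud below the line, and Gli2 lies at the left edge of the cloud above it.

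The 208-bp unit was spread widely over the ventral list. At least 50% of the window aligned to it at 80% identity or more in 241 of 812 windows (29.7%), against 0 of 2000 random windows, which allows up to 0.15%. All 241 were lower at 24 h, and they were named after 181 genes. Their median was 2.68 RPKM at 24 h and 16.2 at 22 h, and their median ratio was 5.44-fold lower. The 374 lower windows without the unit were 5.38-fold lower at the median. By deficit among the 241, with columns without reads again set to 3 reads, the first Sim1 window ranked 17 and Meis1 96. The second Sim1 window ranked 196 and Pou3f4 199. The intervals of these 4 ratios all hold the median of 5.44-fold, so these ranks are poorly determined. The 4 windows near these 3 genes thus belong to a large set of alike sequence that was lower at 24 h in all of this list's copies.

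Tcf7l2 and Klf7 also had relatives in the list. Aligned over at least 50% of the Tcf7l2 window were 24 other listed windows, all lower at 24 h, with medians of 3.82 RPKM at 24 h and 16.6 at 22 h. For the Klf7 window there were 28, again all lower, with medians of 2.68 and 14.7 RPKM. Beyond that list, the Klf7 window had 1 relative in the dorsal 24 h against 22 h list, lower at 24 h, and 1 in the ventral 24 h against 26 h list, higher at 24 h (7.65 against 0.64 RPKM). The Gli2 and Twist2 windows had no relative in any of the 4 lists. Among the members, each of the 6 pairs formed by the Sim1, Meis1 and Pou3f4 windows aligned, with 92% to 98.5% identity over the longest alignment. No other pair did.

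Much of the sequence of the 6 lower windows occurs elsewhere in the genome. Cut into words of 31 bases, the median genome count of a word was 2209 for the first Sim1 window, 2339 for the second, 1916 for Meis1 and 2850 for Pou3f4. It was 599 for Klf7 and 299 for Tcf7l2. The median of these counts was 781 over the ventral list's lower windows and 1 over random windows, so Klf7 and Tcf7l2 lay below the list's lower windows. Words that occur once made up 37.2% of the Tcf7l2 window, 22.8% and 4.68% of the Sim1 windows, and 0% of the Meis1, Pou3f4 and Klf7 windows. In those 3, words of this length cannot tell the window from its other copies. How reads with several matches were placed is not given in the sources used here, and its part in the values was not tested. Only the Gli2 and Twist2 windows were mostly unique (at least 50% of words found once). Mostly unique windows made up 3.09% of the ventral list's lower windows, 56.3% of its higher windows and 47.1% of the dorsal list's higher windows, so this split is near that of the lists. Among random windows they made up 85.8%.

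The lower windows also differed from the higher ones in CpG content. Pou3f4 and the second Sim1 window held 30 CpGs in 500 bp, the first Sim1 window 26, Klf7 23, Meis1 22 and Tcf7l2 19. The Gli2 window held 9 and the Twist2 window 5. The median was 28 in the ventral list's 615 lower windows, 5 in its 197 higher windows and 3 in random windows. In the 17 higher windows of the dorsal 24 h against 26 h list, to which Twist2 belongs, it was 2. All 8 windows thus lay above the random median, and among the 6 lower ones Pou3f4 and the second Sim1 window lay above the median of the ventral list's lower windows. GC content ran from 50.4% (Tcf7l2) to 63% (Pou3f4 and the second Sim1 window) in the lower windows, and was 43% at Gli2 and 52.6% at Twist2.

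**Figure D4:**
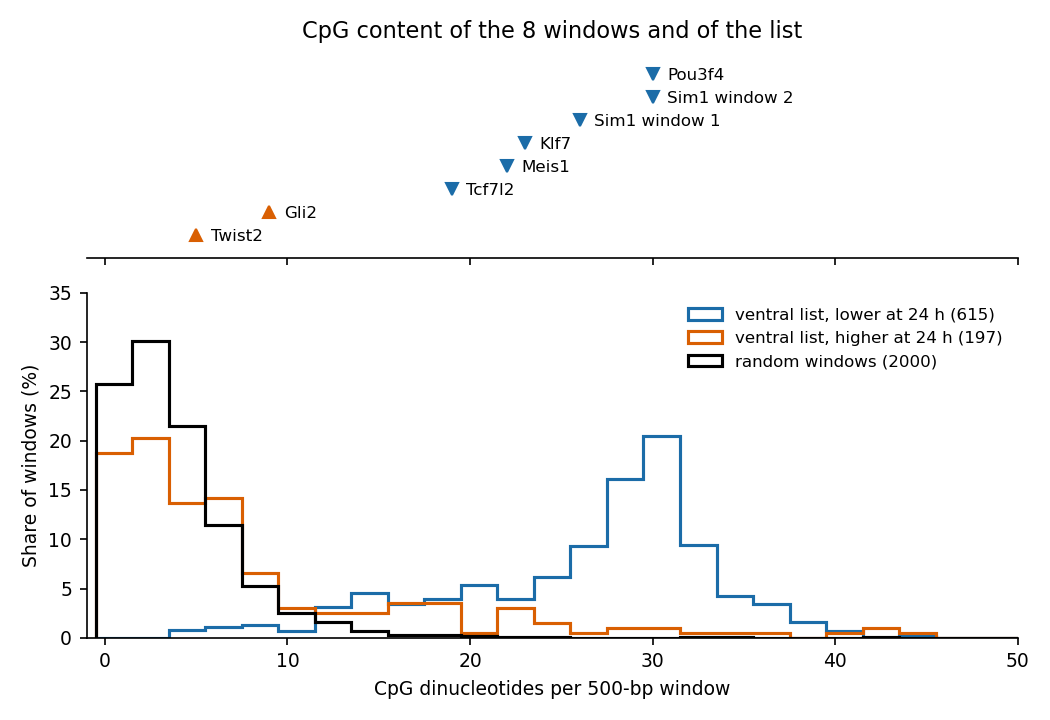
CpG dinucleotides per 500-bp window (horizontal axis) for the 8 windows (upper panel, triangles down for lower and up for higher at 24 h) and as shares of windows in percent (lower panel) for the lower and higher windows of the ventral list and for random windows. The 6 lower windows hold 19 to 30 CpGs, Gli2 holds 9 and Twist2 holds 5.

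None of the 8 windows lay in the gene it was named after. Those of Sim1, Meis1, Pou3f4 and Tcf7l2 lay past the end of the gene. The Sim1 windows were 139 kb from the authors' start site and 45.3 and 45.8 kb beyond the end of the gene, which spans chr10:50615457-50708958 in GENCODE M1. The Pou3f4 window was 66.4 kb from the start site and 65.3 kb beyond the end of this short gene. The Tcf7l2 window was 88.4 kb from the authors' start site, which is an internal one, and 242 kb from the start of the gene. It lay 50.1 kb beyond the gene's end.

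The Meis1 window was farthest, 395 kb from the start site and 257 kb beyond the end of the gene. It lay within Gm12023, a noncoding transcript, outside its exons, and the start of the pseudogene Gm12024 was 45.3 kb away. No other window overlapped an annotated gene. The Klf7 and Gli2 windows lay upstream, 62.8 kb and 37.1 kb before the start site, and the start of a pseudogene, Gm13750, was nearer to the Klf7 window (34 kb). The Twist2 window was closest to its gene, 4.3 kb upstream of the start site. In its list 10.1% of windows lay within 5 kb of a start site. The median distance was 77.8 kb in the ventral list and 85.7 kb in the dorsal list, so Sim1, Meis1 and Tcf7l2 lay beyond their list's median and the others below it. By direction, it was 106 kb for the ventral list's lower windows, 40.5 kb for its higher windows and 35.5 kb for the dorsal list's higher windows. Against windows of their own direction, only Sim1 and Meis1 lay beyond the median. Windows at such distances say nothing on the methylation of the promoters, which were not analysed here.

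**Figure D5:**
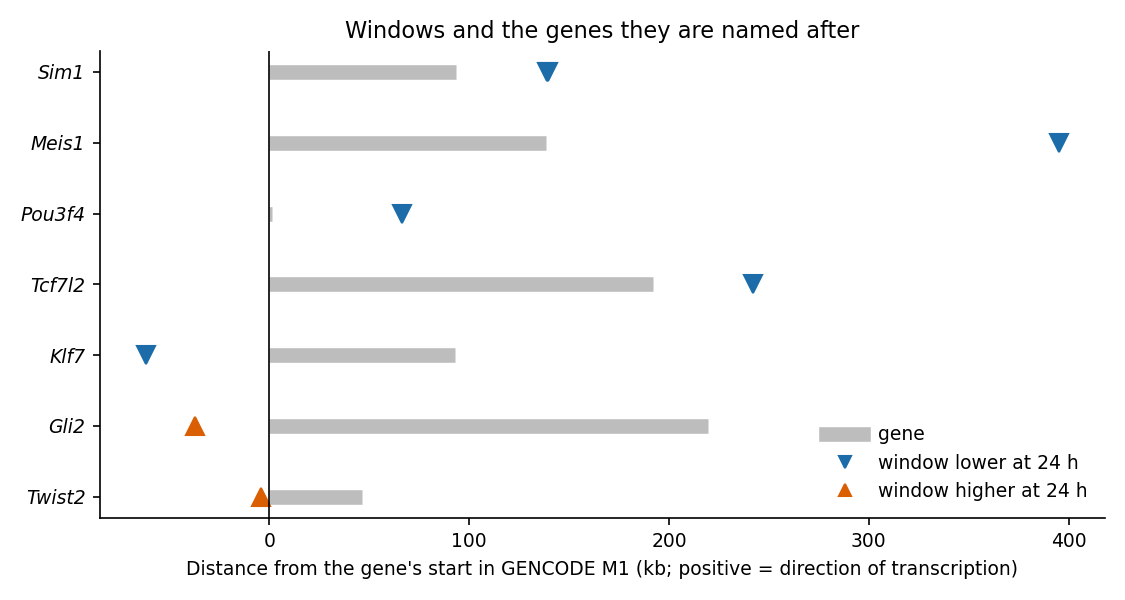
Position of each window (triangles) relative to the start of its gene in GENCODE M1 (horizontal axis in kb, positive in the direction of transcription), with the gene as a grey bar. Blue triangles point down for windows lower at 24 h and orange ones up for windows higher at 24 h. Sim1, Meis1, Pou3f4 and Tcf7l2 have the window past the gene, and Klf7, Gli2 and Twist2 before it.

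Few other listed windows were near. Apart from the adjoining Sim1 pair, no listed window lay within 100 kb of a member in the same list. The nearest on the chromosome were 380 kb away for Klf7 (nearest 4933402D24Rik, 3.06 RPKM at 24 h and 16.7 at 22 h), 515 kb for Meis1 (nearest Etaa1, 9.94 and 25.2) and 506 kb for Tcf7l2. That last one, nearest Plekhs1, was higher at 24 h (10.3 against 2.94 RPKM). For Gli2 the nearest listed window, 994 kb away near Tsn, was lower at 24 h (3.06 against 14.2 RPKM). For Pou3f4 it was 1424 kb away near Satl1, also lower (1.53 against 11.8). For Twist2 it was 48686 kb away near 4930521E06Rik, and lower at dorsal 24 h than at 26 h (1.75 against 15.2 RPKM).

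Other genes of the same families were looked up in the 4 tables, in which 787 gene names stand in all. Lists of the bHLH-PAS, TALE homeobox, POU, TCF and Wnt output, Hedgehog, TWIST and HAND, and KLF families, and of hypothalamic developmental factors, held 153 genes together, of which 9 named a window. Of these 9, 7 are the genes the windows were chosen for, and the others were Pou4f1 and Mkx, both in dorsal lists. The share of all genes of the genome that named a window was not computed, so these counts are a description. Pou4f1, a POU factor of sensory neurons, had 2 adjoining windows about 131 kb from its start site. They had 3.93 against 15.6 RPKM and 2.62 against 10.4 RPKM at dorsal 24 h and 26 h, each 3.97-fold lower (1.92 to 9.24 and 1.63 to 11.7). Mkx, a homeobox factor of tendon, had 0.44 RPKM (1 read) at dorsal 24 h and 7.34 (21 reads) at dorsal 22 h, 16.8-fold lower (2.7 to 695).

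By family, windows were named after 1 of 11 bHLH-PAS genes, 2 of 18 TALE genes, 2 of 14 POU genes and 1 of 16 genes of TCF and Wnt output. They were named after 1 of 16 Hedgehog genes, 1 of 7 TWIST and HAND genes and 1 of 17 KLF genes. Of the 70 hypothalamic developmental factors, 5 named 6 windows, all in the ventral 24 h against 22 h list, 5 lower and 1 higher. All 5 are among the genes the windows were chosen for, so this count follows from that choice. That list holds 812 of the 1239 listed windows, and 75.7% of its windows were lower. The ligands and receptors of the Hedgehog list, and beta-catenin in the Wnt list, named no window. In the ventral 24 h against 26 h list, which holds 217 windows, 0 of the 153 genes named a window. Without the share over all genes, the counts by family and these absences are a description only.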

How the data were processed

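MeDIP-seq reads were aligned with BWA to mm9, per the submitters' processing notes; the version and the criteria for the lists are not given in the sources used here. Per the file headers, the authors deposited for each 500-bp window an RPKM value per cycle length, a column named counts (used here as a score), an edgeR log2 fold change and an unadjusted edgeR p-value, which compare single columns. The distance is to the nearest start site. Where a window stood in a table repeatedly, it was kept once.

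Reads were recovered from RPKM, since 1 read is worth a constant step. All values under 20 RPKM were whole multiples within 0.01 RPKM. The recovery takes a column as 1 set of reads with 1 depth, such as a pool or 1 sample. In a mean of samples of unlike depth, 1 read would not be worth a constant step. On simulated data 100% of windows were recovered. The limit given for a share of 0 is 3 counts of the total. In ratios of listed windows, a column with 0 reads was set to 3 reads, which no window of the 7 genes required. The reference genome, NCBIM37, is the build mm9, and genes came from GENCODE M1. Sequences were compared with BLAST 2.17.0 (80% identity or more) and with 2000 random windows. Exact intervals came from scipy 1.17.1 in Python 3.11.15, tables from pandas 2.3.3 and numpy 2.4.6, and word counts from numba 0.67.0, with pyfaidx 0.9.0.4 and matplotlib 3.10.9. The genes, lists and settings were chosen with earlier results of these data known. Named were all windows of the 7 genes, the nearest listed window of each and other family genes with a window.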

Additional observations from a re-analysis of the deposited data

How the results depend on the processing

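No paired analysis was possible because the tables hold 1 column per group, and for the same reason no sample could be left out. With the authors' log2 fold change, or with 1 read added to both columns, all 8 log2 ratios kept their direction and stayed within their interval. Centring on the median log2 ratio of each list, which itself holds mostly lower windows, turned the second Sim1 window to 0.086, Pou3f4 to 0.10 and Klf7 to 0.063, and moved the first Sim1 window to -1.01, Meis1 to -0.34 and Tcf7l2 to -0.69; it raised Gli2 from 4.34 to 6.59 and Twist2 from 4.42 to 6.85. Start sites of GENCODE M1 gave 388.3 kb for Meis1, 85.2 kb for Tcf7l2 and -61.9 kb for Klf7. With a limit of 2-fold, 197 windows of the ventral list and 17 of the dorsal list were higher at 24 h, against 83 and 11 at 4-fold. With the 2 Sim1 windows merged, 5 of 7 regions were lower. At 80% of words the count of mostly unique windows was again 2. Depth limits the Gli2 and Twist2 ratios most, since each rests on 1 read.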

Other observations

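The tandem unit of the Sim1, Meis1 and Pou3f4 windows was scarce in the other lists. In the dorsal 24 h against 26 h list it covered 2 of 79 windows, both lower at 24 h, with medians of 0.66 RPKM at 24 h and 6.94 at 26 h. In the ventral 24 h against 26 h list it covered 1 of 217 windows, which was higher at 24 h, with 5.74 RPKM against 0. In the dorsal 24 h against 22 h list it covered 0 of 131 windows, which allows a share of up to 2.29%. These lists were selected separately, so the shares do not compare the groups themselves.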
